A study of Mus musculus with 3 samples.

Results

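Cartilage makes a small set of secreted or membrane-bound proteins that few other tissues produce, and 10 of the genes for them are described here. They were picked by symbol and are Ucma, Lect1 (now Cnmd), 3110079O15Rik (now Snorc), Susd5, Scrg1, Clec3a, Cytl1, Vit, Cilp and Cilp2. All 10 have a row in a table of 44788 gene symbols. Bulk RNA-seq libraries were made from primary chondrocytes of C57BL/6 knee joint cartilage. Of these, 2 cKO libraries came from Col2a1-CreERT2;Kdm6bf/f cells and the 1 control library from Kdm6bf/f cells. Both genotypes therefore carried the floxed Kdm6b alleles, and both received 4-hydroxytamoxifen at 1 µM for 48 h. The drug activates the CreERT2 recombinase, which the Col2a1 promoter drives in cells that make type II collagen. The recombinase was present in the cKO cells alone, so its own activity and the loss of Kdm6b cannot be told apart. The animals' age is not given in the labels, nor how many animals or cultures stand behind each library, so p-values measure the spread between these samples alone. The 2 cKO libraries are not repeats of 1 RNA sample, since their counts of Xist, the RNA made from an inactive X chromosome, were 2 in cKO replicate 1 and 10081 in cKO replicate 2, against 1 in the control.

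Chondrocytes embed themselves in a matrix of collagen and proteoglycan, and the proteins described here are minor parts of that matrix or act on the cells around it. Some restrain vessels or mineral from entering cartilage, some bridge collagen networks, and others have roles that are poorly known. Several are under the control of Sox9, the transcription factor that sets chondrocyte identity. Kdm6b encodes a demethylase that removes a repressive methyl mark from histone H3, and the comparison asked which transcripts differ where the recombinase could delete it.

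The libraries held between 12489738 and 12636471 counts each. Kdm6b had 1049 and 948 counts in the cKO libraries, against 1289 in the control, and its log2 fold change of -0.39 ± 0.14 (SE) did not pass edgeR's quasi-likelihood test after Benjamini-Hochberg adjustment (adjusted p = 0.138), so gene-level counts check the genotype only weakly. Exons of Kdm6b overlap those of the antisense gene Kdm6bos, and as the strand setting of the counting is not given, whether reads of Kdm6bos are included is not known. Of 12 chondrocyte marker genes, 11 fell in the cKO libraries, where 1.90% of all genes tested were called lower by edgeR. All of the 12 but Sox9 are also among the 25 other cartilage matrix genes below. Sox9 is among the genes of chondrocyte transcription, so the counts for those lists are not separate results. The 12 together summed to 15367 and 14420 CPM (counts per 1000000 of the scaled library size) in cKO against 25870 CPM in the control. Col2a1, the marker outside those 11, made up most of that sum, at 12512 and 11970 CPM in cKO, against 20091 CPM in the control. It was named after its value was seen. Its log2 fold change of -0.71 ± 0.33 (SE) did not pass in edgeR (adjusted p = 0.283). It passed by the 2 other tools, with an adjusted p of 5.15e-04 in DESeq2 and of 0.00456 by voom in limma. DESeq2 called 9 of the 12 lower, Col2a1 among them. Chad, 1 of the 11, had 4 and 9 counts in cKO, against 37 in the control, and was tested through its control count alone. In bulk RNA, fewer chondrocytes and less RNA per chondrocyte cannot be told apart. Other features of the libraries stand beside the results below. All 30 interferon-stimulated genes in a list rose in the cKO libraries, and the 2 cKO libraries differ in Xist as given above.

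The genes lie on 7 chromosomes of the mouse (GENCODE M21, GRCm38). Chromosome 8 holds Scrg1 (57455923 to 57477585), Cilp2 (69880369 to 69887687) and Clec3a (114418086 to 114425846), and chromosome 9 holds Cilp (65265180 to 65280605) and Susd5 (114057140 to 114098728). The others are Snorc on chromosome 1 (87470271 to 87475482), Ucma on chromosome 2 (4976122 to 4985748), Cytl1 on chromosome 5 (37735519 to 37739820), Lect1 on chromosome 14 (79637690 to 79662170) and Vit on chromosome 17 (78508064 to 78627408). All are annotated as protein-coding. The exons of 0 of the 10 overlap exons of another annotated gene on either strand. None of their transcripts matched a transcript of another gene over at least 100 bases at 90% identity or more.

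RefSeq promoter sequences (GRCm38.p6) were matched for 6 of the 10 genes, namely Ucma, Lect1, Susd5, Cytl1, Cilp and Cilp2. Snorc, Scrg1, Clec3a and Vit were not matched. The windows of 250 bases end just before RefSeq's start. For Susd5 and Cilp2 that start lies inside the gene as GENCODE annotates it, so 214 bases of the Susd5 window and all 250 of the Cilp2 window are exon there, and these are not shown. The windows of Ucma and Lect1, whose transcripts fell, and of Cytl1, whose transcript did not pass the test, lie wholly outside the annotated genes and are shown to set 2 genes that fell beside 1 that did not pass. Each reads 5′ to 3′ along the gene's strand, and capitals mark CpG dinucleotides.
Ucma (chr2:4975872-4976121, plus strand): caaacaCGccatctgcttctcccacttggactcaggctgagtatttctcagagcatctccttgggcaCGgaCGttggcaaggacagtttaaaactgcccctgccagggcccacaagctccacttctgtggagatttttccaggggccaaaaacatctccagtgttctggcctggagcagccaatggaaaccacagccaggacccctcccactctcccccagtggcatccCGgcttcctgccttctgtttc
Lect1 (chr14:79662184-79662433, minus strand): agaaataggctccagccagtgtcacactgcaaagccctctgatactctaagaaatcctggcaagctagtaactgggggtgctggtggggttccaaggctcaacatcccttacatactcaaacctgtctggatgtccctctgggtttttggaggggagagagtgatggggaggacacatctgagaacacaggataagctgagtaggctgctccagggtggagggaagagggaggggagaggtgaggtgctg
Cytl1 (chr5:37735269-37735518, plus strand): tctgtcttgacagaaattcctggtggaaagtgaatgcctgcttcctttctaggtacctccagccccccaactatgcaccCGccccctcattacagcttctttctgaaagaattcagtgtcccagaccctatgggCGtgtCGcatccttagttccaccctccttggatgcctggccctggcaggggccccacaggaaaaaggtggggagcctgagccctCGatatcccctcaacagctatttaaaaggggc

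The Lect1 window held 0 CpG dinucleotides, as did 7.87% of 32851 RefSeq promoter windows of the same length. The Ucma and Cytl1 windows each held 4, Cilp held 3, Susd5 held 11 and Cilp2 held 15, against a median of 6 over all windows. The words ACAAAG and ACAATG, which SOX factors can bind, were searched on both strands. Neither was found in the 6 windows, and 25.2% of all windows held at least 1 of them. The RUNX word TGTGGT, found in 14.1% of all windows, was present on the reverse strand once in Ucma, 62 to 57 bases before the start, and once in Cilp, 205 to 200 bases before the start. The word TATAAA was in none of the 6 windows and in 12.4% of all. These are matches of letters and say nothing of whether a factor binds.

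Levels were compared between genes per kilobase of annotated exon, since the transcripts differ in length. Lect1 was the most abundant, at 106 and 88.6 CPM per kb in the cKO libraries, against 277 CPM per kb in the control. Ucma, Susd5 and Scrg1 came next, at 19.1 ± 0.2, 17.3 ± 1.6 and 11.7 ± 1.0 CPM per kb in cKO (SD, n = 2) and 66.1, 42.6 and 29.8 CPM per kb in the control. The order of these 4 was the same in each of the 3 libraries. Below them in cKO, Cytl1 (2.66 and 2.36 CPM per kb) and Clec3a (2.58 and 2.11) overlapped, and so did Snorc (0.444 and 0.973) and Cilp2 (0.799 and 0.470). Vit, at 0.273 and 0.387 CPM per kb in cKO and 0.449 in the control, and Cilp, at 0.0377 and 0.0551 in cKO and 0.0947 in the control, were the lowest. In the control the middle of the order differed, with Clec3a at 8.85, Snorc at 6.47, Cytl1 at 4.35 and Cilp2 at 0.672 CPM per kb. Lect1 and Susd5 together made up 88.9% and 87.3% of the counts of the 10 genes in cKO, and 87.4% in the control.

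**Figure D1:**
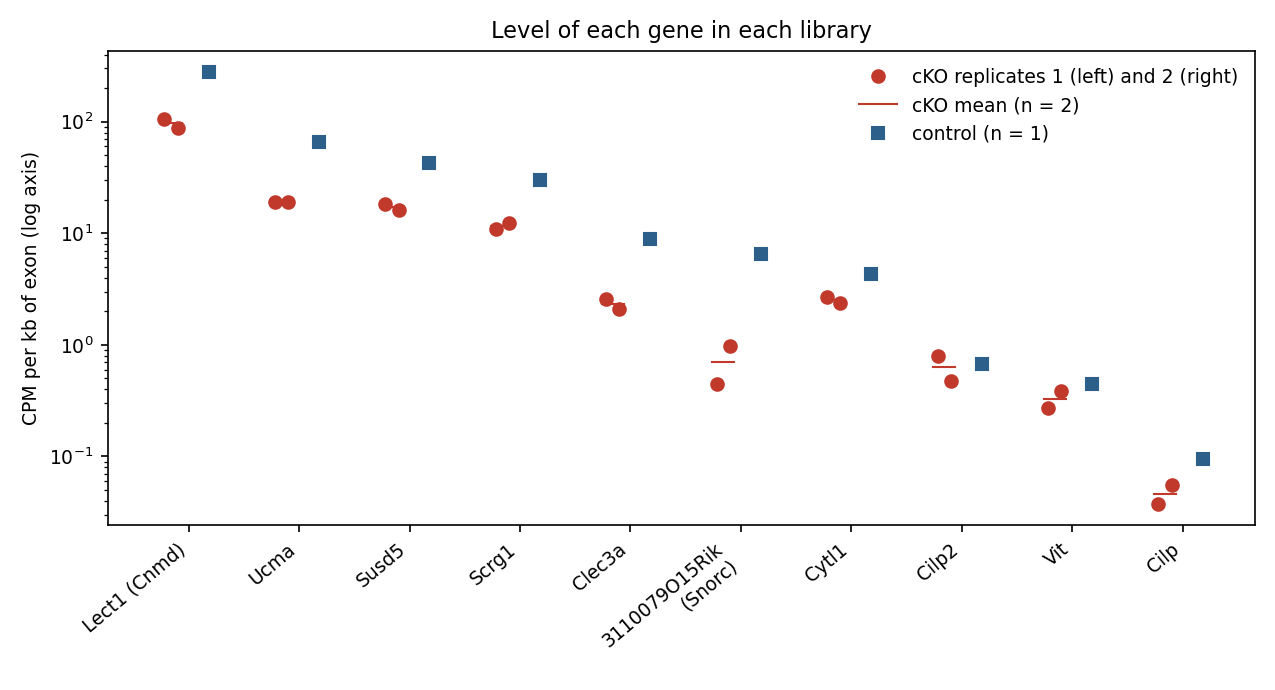
Level of each of the 10 genes in CPM per kilobase of exon on a log axis, with the 2 cKO libraries as circles (line, their mean) left of the 1 control library (square). Genes are ordered by their control level, from Lect1 at 277 CPM per kb to Cilp at 0.0947, and the control lies above both cKO libraries for 9 of the 10, the exception being Cilp2.

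Of the 10 genes, 6 fell in cKO chondrocytes, 0 rose, 3 did not pass the test and 1, Cilp, was left untested because no library reached the cutoff of the filter on low counts, 0.795 CPM or 10 counts at the median depth. Snorc, 1 of the 6, passed that filter through the control library alone. Over all 15529 genes tested, 1.90% were called lower and 3.01% higher by edgeR at an adjusted p of 0.05. At an unadjusted p under 0.05, 7 of the 10 were lower (7.31% of all genes) and 0 higher, and DESeq2 called 4 lower and 0 higher (0.541% of all genes were lower there). Both cKO libraries lay below the control for 9 of the 10, beside 37.4% of all genes tested. A level at least 2-fold lower in both cKO libraries was seen for 6, beside 1.17% of all genes tested. The calls rest on the spread between 2 cKO libraries, largely pooled over genes, and on an assumed like spread for the single control. Each gene had 1 residual degree of freedom, beside 19.9 that edgeR estimated for the pooled prior. With no filter on low counts edgeR called 0 of 24051 genes in either direction. At an unadjusted p under 0.05, that fit had 7 of the 10 lower and 0 higher. Over all genes, 1830 of the 24051 had such a p, lower and higher together.

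The median log2 ratio to the control over all 10 genes was -1.30 in cKO replicate 1 and -1.33 in cKO replicate 2, and these ratios share the same control. The summed level of the 10 genes was 304 and 263 CPM in the cKO libraries, against 783 CPM in the control. Among the 4 genes with a mean of at least 5 CPM all 4 fell, where 2.36% of genes at that level were called lower.

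**Figure D2:**
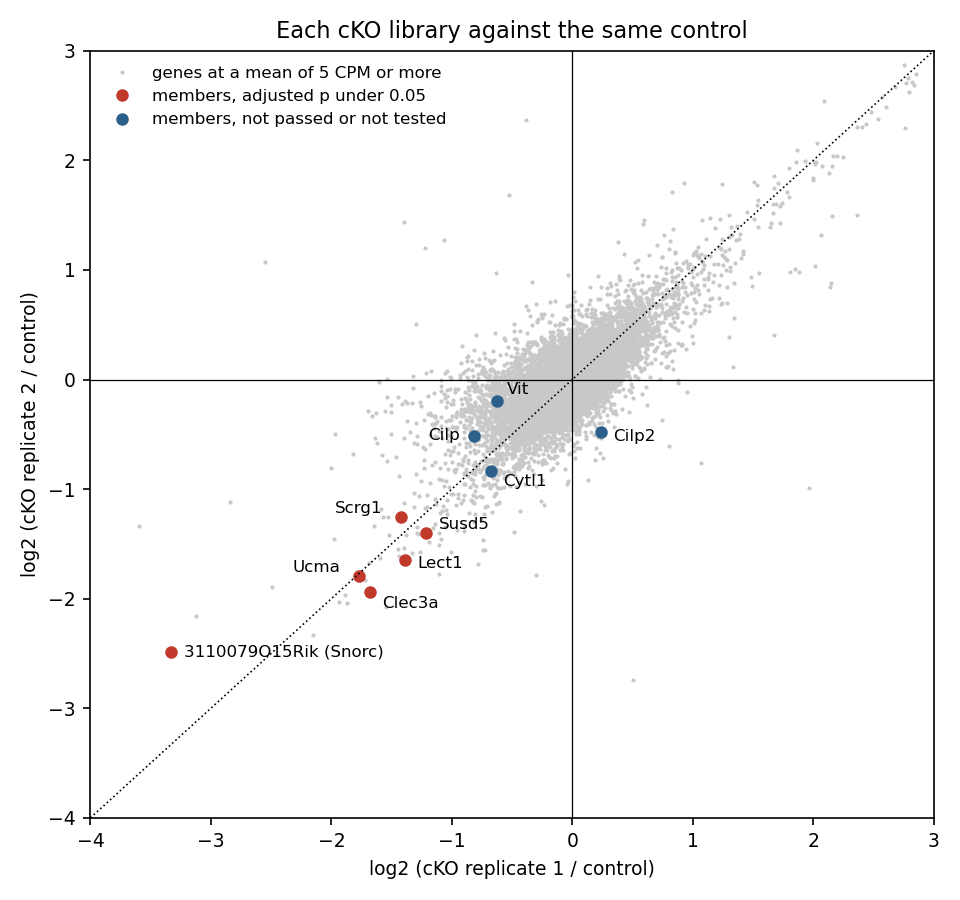
Log2 ratio of cKO replicate 1 (x axis) and cKO replicate 2 (y axis) to the same control, computed with 2 counts added, for the 10 genes (large points) over the 11338 genes with a mean of at least 5 CPM (grey). The axes are cut at -4 and 3, which leaves 82 grey points outside, and the 6 genes that passed the test lie below -1 on both axes. Of the 6, Snorc lies farthest from the dotted line of equal ratios, at -3.33 for cKO replicate 1 and -2.49 for cKO replicate 2.

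Among the proteins that act on vessels and mineral, Lect1 and Ucma were the clearest falls. Lect1 encodes chondromodulin, a membrane-bound precursor whose released part keeps blood vessels out of cartilage. It had 2432 and 2093 counts in the cKO libraries, against 6341 in the control, or 195 and 163 CPM against 510 CPM. Both cKO libraries thus lay far below the control, and the log2 fold change was -1.51 ± 0.14 (SE, adjusted p = 7.21e-08 in edgeR). Its relative Tnmd, which encodes tenomodulin of tendon, was scarce, with 8 and 15 counts in cKO, against 19 in the control (log2 fold change -0.74 ± 0.61 SE), and did not pass (adjusted p = 0.632 in edgeR).

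Ucma encodes a small secreted protein rich in gamma-carboxylated glutamate that binds calcium and is made by chondrocytes of the resting zone. It had 212 and 214 counts in the cKO libraries, against 726 in the control, or 17.0 and 16.7 CPM against 58.4 CPM. The 2 cKO libraries were nearly alike, and the level in cKO was 28.8% of that in the control. The log2 fold change was -1.79 ± 0.16 (SE, adjusted p = 6.20e-08 in edgeR). Mgp, another gamma-carboxylated protein of cartilage that restrains mineral and a member of the wider list below, was measured at 176 and 271 CPM in cKO, against 200 CPM in the control, with cKO libraries on either side of it (adjusted p = 0.759 in edgeR). It is set beside Ucma for that shared chemistry and was named after its value was seen.

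The membrane-associated proteins also fell. Snorc, a small transmembrane proteoglycan core protein of cartilage listed as 3110079O15Rik, had 4 and 9 counts in the cKO libraries, against 58 in the control. Its levels were 0.321 and 0.702 CPM in cKO, against 4.67 CPM in the control, and the log2 fold change was -3.16 ± 0.52 (SE, adjusted p = 0.000353 in edgeR). This was the lowest fitted log2 fold change of the 15529 genes tested, although few counts stand behind it. Snorc entered the test through the control library alone, so this rank follows in part from the filter on low counts. The ratio of normalised counts, cKO over control, was 0.110, with an exact 95% binomial interval of 0.0553 to 0.203 that covers counting error only. It did not pass in DESeq2 (adjusted p = 0.0756, in a range of 0.000250 to 0.482 over 10 other fits), and without cKO replicate 2 the log2 ratio was -3.82, against -2.72 without cKO replicate 1.

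Susd5 encodes a membrane protein with a sushi domain and a link domain of the kind that binds hyaluronan. It had 936 and 844 counts in the cKO libraries, against 2163 in the control, or 75.1 and 65.9 CPM against 174 CPM. Its log2 fold change was -1.31 ± 0.14 (SE, adjusted p = 5.96e-07 in edgeR). The gap between the cKO libraries was small beside the gap to the control.

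Of the small secreted factors, Scrg1 fell and Cytl1 did not pass. Scrg1, first described in scrapie-infected brain and strongly expressed in cartilage, had 96 and 111 counts in the cKO libraries, against 259 in the control, or 7.70 and 8.66 CPM against 20.9 CPM. Its log2 fold change was -1.35 ± 0.22 (SE, adjusted p = 0.000430 in edgeR). Cytl1, a cytokine-like protein first found in blood progenitors and made by chondrocytes, had 35 and 32 counts in cKO, against 57 in the control, or 2.81 and 2.50 CPM against 4.59 CPM. Both cKO libraries were below the control, but the log2 fold change of -0.79 ± 0.38 (SE) had an adjusted p of 0.312 in edgeR. The ratio of normalised counts, cKO over control, was 0.577, with an exact 95% binomial interval of 0.400 to 0.837 for counting error only.

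Clec3a, a C-type lectin of cartilage related to tetranectin, had 19 and 16 counts in the cKO libraries, against 65 in the control. These are 1.52 and 1.25 CPM in cKO, against 5.23 CPM in the control, with both cKO libraries well below it, and the log2 fold change was -1.91 ± 0.41 (SE, adjusted p = 0.00568 in edgeR). The call was lost in DESeq2 (adjusted p = 0.434) and with library totals in place of TMM, edgeR's usual scaling (adjusted p = 0.0572 in edgeR). Over the 10 other fits its adjusted p ranged from 0.00488 to 0.534 and its log2 fold change from -1.92 to -1.80. The gene of tetranectin itself, Clec3b, had 17 and 11 counts in cKO, against 5 in the control, with cKO libraries above the control, and did not pass (log2 fold change 1.44 ± 0.81 SE, adjusted p = 0.426 in edgeR). Clec11a, a growth factor gene of the same lectin group, fell by 0.78 ± 0.13 on the log2 scale (SE, adjusted p = 0.000578 in edgeR).

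Of the larger matrix proteins, Vit and Cilp2 did not pass and Cilp was not tested. Vit encodes vitrin, a matrix protein with von Willebrand factor A domains. It had 11 and 16 counts in cKO, against 18 in the control, or 0.882 and 1.25 CPM against 1.45 CPM, and the log2 fold change was -0.44 ± 0.59 (SE, adjusted p = 0.805 in edgeR). Both cKO libraries of Vit were below the control by less than the counting error, with an interval of 0.391 to 1.42 for the ratio of normalised counts. Coch, which encodes its relative cochlin, had 58 and 55 counts in cKO, against 32 in the control (log2 fold change 0.79 ± 0.39 SE, adjusted p = 0.331 in edgeR).

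Cilp and Cilp2 encode paired proteins of the cartilage intermediate layer, the matrix between the joint surface and the deep zone. Cilp2 had 43 and 26 counts in the cKO libraries, against 36 in the control, or 3.45 and 2.03 CPM against 2.90 CPM. The control lay between the 2 cKO libraries, and the log2 fold change was -0.08 ± 0.44 (SE, adjusted p = 0.960 in edgeR). The log2 ratio was 0.25 without cKO replicate 2 and -0.51 without cKO replicate 1, so no direction can be given. An exact 95% binomial interval of its ratio of normalised counts, cKO over control, ran from 0.621 to 1.45. Cilp had 2 and 3 counts in cKO, against 5 in the control, a ratio of 0.491 with an interval of 0.113 to 2.13, and at this depth a difference was not detectable. In all 3 libraries Cilp2 was the more abundant of the pair per kilobase.

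**Figure D3:**
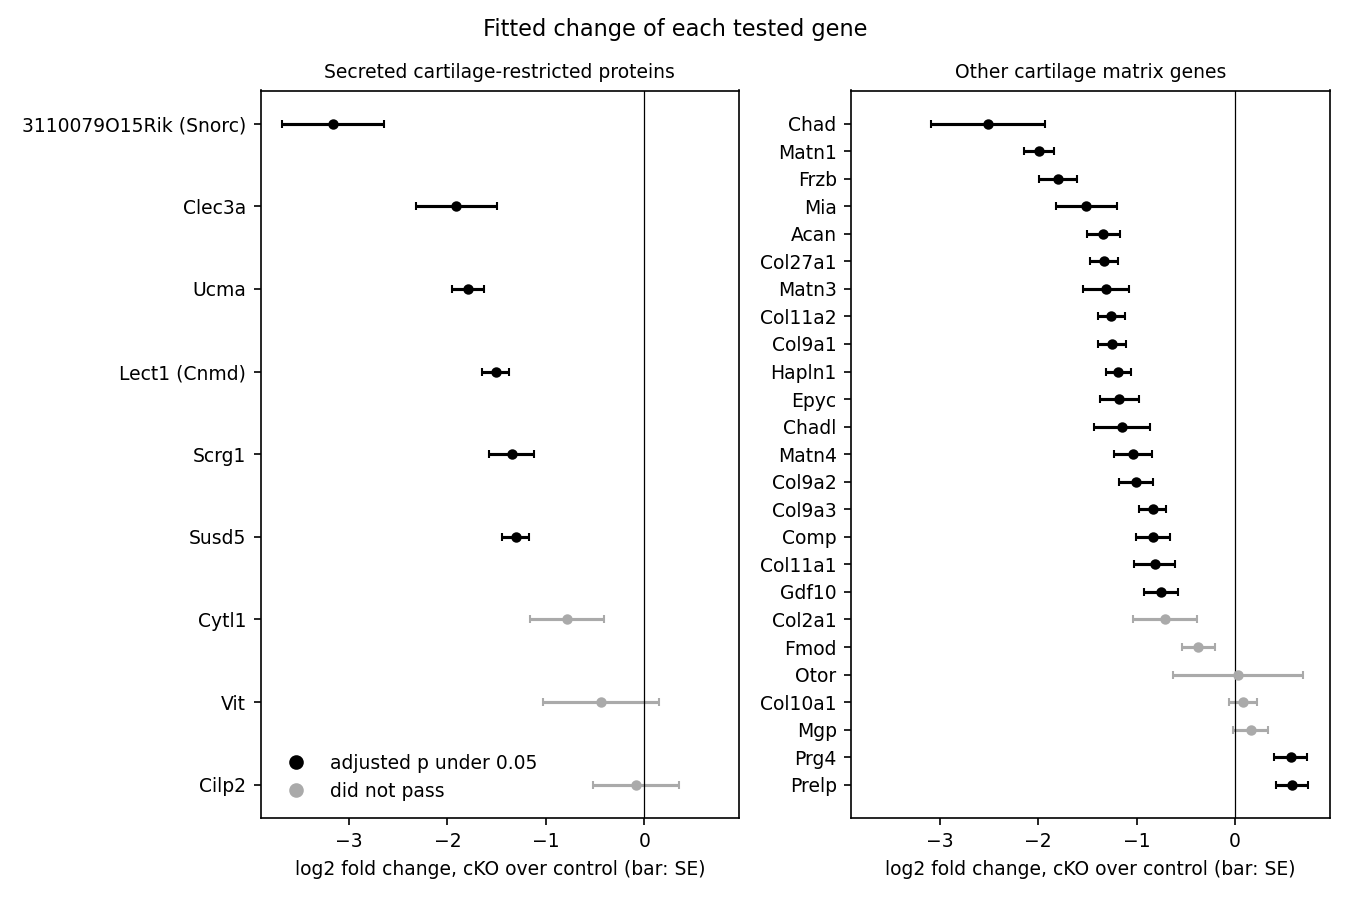
Fitted log2 fold change, cKO over control, with its SE, for the 9 tested genes (left) and for 25 other cartilage matrix genes (right), each ordered from the lowest. Black points passed at an adjusted p under 0.05 in edgeR and grey points did not, and the 6 black points on the left lie between -3.16 for Snorc and -1.31 for Susd5.

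The same comparison over 25 other cartilage matrix genes gave 18 that fell, 2 that rose and 5 that did not pass. That list holds all of the 12 chondrocyte markers above but Sox9, so the counts overlap. DESeq2 called 13 lower and 1 higher. Chad, 1 of the 18, had 4 and 9 counts in cKO, against 37 in the control. It passed the filter on low counts through the control alone and is named for that reason. The median log2 fold change of that list was -1.04, beside -0.0022 over all genes tested, and that of the 9 tested genes described here was -1.35. Matn1, which encodes a matrix filament protein of cartilage, had the smallest p of the list and fell by 1.99 ± 0.15 on the log2 scale (SE, adjusted p = 2.16e-09 in edgeR). It was followed by the collagen genes Col27a1 at -1.33 ± 0.14 and Col11a2 at -1.26 ± 0.14, and by Frzb, a secreted Wnt antagonist, at -1.80 ± 0.19 (SE). The members that rose were Prelp and Prg4, the last of which encodes the lubricant of the joint surface and did not pass in DESeq2 (adjusted p = 0.318). Exons of both overlap a gene on the opposite strand, so their values are uncertain. The same holds for 6 more of the 25, namely Col9a3, Matn4, Chadl and Epyc, which fell, Col10a1, which did not pass, and Mia, which fell and whose overlap is with a gene on the same strand.

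Of 15 genes of chondrocyte transcription, 12 were tested, 3 fell and 0 rose. Sox9 had 187 and 186 CPM in the cKO libraries, against 278 CPM in the control, and its log2 fold change was -0.58 ± 0.13 (SE, adjusted p = 0.00876 in edgeR). Its partner Sox6 fell by 0.65 ± 0.13 and the ubiquitin ligase gene Wwp2, which holds the microRNA gene Mir140, by 0.85 ± 0.13 on the log2 scale (SE). Sp7, a factor of bone and late chondrocytes, had a log2 fold change of -0.92 ± 0.28 (SE) and did not pass (adjusted p = 0.0652 in edgeR). DESeq2 called 1 of the 15 lower, Wwp2, and not Sox9 (adjusted p = 0.0567) or Sox6 (adjusted p = 0.0512). In fold, the 6 falls among the cartilage-restricted proteins were each larger than that of Sox9, but the difference between genes was not tested.

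Over the 3 libraries, 5 other genes came nearest to the median pattern of Lect1, Ucma, Susd5 and Scrg1, which had log2 ratios of -1.40 in cKO replicate 1 and -1.52 in cKO replicate 2. They were taken from 3876 genes with a mean of at least 50 CPM, by straight-line distance between the pairs of log2 ratios. Cst3, which encodes the secreted protease inhibitor cystatin C, was nearest at a distance of 0.0488, with 237 and 221 CPM in cKO, against 645 CPM in the control. Acan, the main cartilage proteoglycan, followed at 0.172, then Col27a1 at 0.217, Col11a2 at 0.294 and the growth factor receptor gene Fgfr3 at 0.320, whose exons overlap a gene on the opposite strand. With 3 libraries and a shared control, this likeness is a description only.

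Markers of other cells were examined in the same libraries. Over all 15529 genes tested, edgeR called 1.90% lower and 3.01% higher. At an unadjusted p under 0.05, 7.31% were lower, and 2431 genes passed in either direction. Of 16 fibroblast and synovium markers, 15 were tested. Among them 2 fell (Dcn and Lum, in DESeq2 too) and 1 rose (Thy1, which did not pass in DESeq2). At an unadjusted p under 0.05 in edgeR, 3 were lower and 4 higher. Thy1 had 623 and 259 counts in cKO, against 139 in the control (adjusted p = 0.00336 in edgeR and 1.00 in DESeq2). The summed level of the list was 27216 and 24884 CPM in cKO, against 27864 CPM in the control. Of 11 osteoblast markers, 6 were tested and 1 fell (Ibsp, adjusted p = 0.0361 in edgeR), which did not pass in DESeq2 (adjusted p = 0.649). At an unadjusted p under 0.05 in edgeR, 2 were lower and 1 higher. The sum was 1898 and 1963 CPM in cKO, against 1490 CPM in the control, with Sost at 0 in every library. Both cKO libraries lay below the control for 3 of the 11 and above it for 5, so this sum gives no direction for the list. Of 8 tendon markers, 7 were tested and 0 passed in edgeR or DESeq2 (1 at an unadjusted p under 0.05 in edgeR). They summed to 1478 and 1428 CPM in cKO, against 1760 CPM in the control. Most of that sum was Fmod, also in the list of cartilage matrix genes, at 1210 and 1144 CPM in cKO, against 1523 CPM. Both cKO libraries lay below the control for 3 of the 8 and above it for 2, so the sum gives no direction for the list. Of 11 mural and smooth muscle markers, 10 were tested and 0 passed in edgeR or DESeq2 (1 at an unadjusted p under 0.05 in edgeR). The 11 summed to 1633 and 1818 CPM in cKO, against 1555 CPM in the control. Leukocyte markers, 12 of 13 of which were in the table, summed to 13.2 and 13.2 CPM in cKO, against 8.13 CPM in the control, with Itgam, Cd52, Tyrobp and Cd3e at 0 throughout, and 0 of the 4 tested passed in edgeR or DESeq2 (2 at an unadjusted p under 0.05 in edgeR). The 7 endothelial markers summed to 3.05 and 3.12 CPM in cKO, against 1.77 CPM in the control, with Cdh5, Emcn and Cldn5 at 0. The part of other cells in the falls described here was not tested.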

How the data were processed

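The authors deposited whole-number read counts per gene symbol, 1 column per library, and these counts were used as they stand. Ion Proton libraries were prepared from RNA depleted of ribosomal RNA, per the labels' protocols. The submitters' processing notes list GRCh37 and GRCm38 without a role. Neither the aligner nor the counter, annotation and strand setting is given in the sources used here. cKO was compared with control over the whole table in edgeR 4.0.16 (R 4.3.3), with TMM scaling, filterByExpr and the quasi-likelihood F test, and p-values were adjusted by the Benjamini-Hochberg method over 15529 genes, called under 0.05. There was 1 residual degree of freedom beside 19.9 estimated for the prior. SE was the log2 fold change over the root of F. CPM uses TMM-scaled library sizes. DESeq2 1.42.0 and limma 3.58.1 (voom) were alternatives. The procedure was tested on simulated data in which both groups had the same spread. The assumption made for the single control was therefore not tested. The simulated spread was set below the common dispersion, edgeR's measure of spread, of 0.0183 fitted here. Genes of low count were given no change, so recovery of falls in such genes was not tested. Each library held 12489738 counts or more, and the binomial intervals cover counting error only. The precision of the fold changes also depends on the spread between libraries, of which there were 2 of cKO and 1 control. Lengths and positions are from GENCODE M21, and matches to other transcripts were sought with blastn 2.17.0. Named genes were all 10 members, Kdm6b, up to 4 genes with the smallest p of each wider list and the 5 nearest in pattern, with exceptions stated where they occur. The genes and lists were chosen with earlier results of these data known.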

Additional observations from a re-analysis of the deposited data

How the results depend on the processing

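Each of the 6 falls kept its direction in all 10 other fits, 2 of which (the legacy and robust edgeR fits) were chosen after seeing the data. The number of genes that fell among the 10 was 6 with DESeq2 size factors, in limma-voom, with a prior count of 2 and in the legacy and robust fits, 5 with library totals and 4 in DESeq2. It was 3 with 5 prior degrees of freedom, 1 with 3 and 0 with no filter on low counts, and 0 rose in any of these. Ucma passed in 9 of the 10 fits, Lect1 and Susd5 in 8, Scrg1 in 7, Snorc in 6 and Clec3a in 5, and their highest adjusted p, with no filter, was 0.152, 0.361, 0.358, 0.433, 0.482 and 0.534 in that order. Of the other cartilage matrix genes, 8, 1 and 0 fell under those last 3 settings. Over all genes, 320 were called with library totals (91 lower), 310 in DESeq2 (84 lower), 193 and 87 with 5 and 3 prior degrees of freedom (42 and 4 lower) and 0 with no filter (0 lower), against 762 (295 lower). The prior degrees of freedom that edgeR estimated were 19.9 as reported, 14.6 with DESeq2 size factors, 6.03 with library totals and 2.03 with no filter, where 1830 genes still had an unadjusted p under 0.05. The median log2 fold change of the 9 tested genes was -1.34 with library totals, -1.33 with no filter (where Cilp was tested too) and -1.33 with a prior count of 2. Without cKO replicate 1 it was -1.40 and without cKO replicate 2 it was -1.39, while 6 genes were at least 2-fold lower in either case. Leaving out a cKO library leaves 1 against 1, so no test or count of calls was run, and the control cannot be left out. No paired analysis was possible because the control carries no replicate number and stands alone.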
